A study of Mus musculus with 6 samples.

Results

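The matrix metalloproteases (MMPs), the ADAMTS proteases, the ADAMTS-like proteins and the tissue inhibitors of metalloproteases (TIMPs) were followed in sinoatrial node (SAN) tissue of HCN4FEA and WT mice. Members were all genes with an Mmp, Adamts, Adamtsl or Timp symbol that had at least 1 probe set carrying that symbol alone, and each gene was read from its brightest such probe set (by the mean of all 6 arrays). This gave 49 genes of the 22180 that could be read this way, of which 22 were Mmp, 18 Adamts, 5 Adamtsl and 4 Timp genes. HCN4FEA is a global knockin, made by homologous recombination in embryonic stem cells, whose HCN4 pacemaker channels carry amino acid exchanges in the C-linker and the cyclic nucleotide-binding domain and no longer respond to cAMP. WT mice carry no such exchange, and both genotypes were bred on the same mixed genetic background. SAN tissue of adult mice was profiled on 3 Affymetrix whole-transcript arrays per genotype, and no mouse received a treatment according to the labels.

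MMPs are zinc endopeptidases that are made as inactive proenzymes and cleave collagens, proteoglycans and other proteins of the extracellular matrix. ADAMTS proteases share the zinc site but carry thrombospondin repeats that tether them to the matrix, whereas ADAMTS-like proteins have such repeats without a protease domain and bind microfibrils. TIMPs plug the active site of these enzymes. In the heart, the balance of enzymes and inhibitors sets how fast the collagen and proteoglycan scaffold around the myocytes is turned over, and the SAN is embedded in a particularly dense scaffold of this kind.

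Values are log2 signals after robust multi-array average (RMA) normalisation, so a difference of 1 is a doubling, and levels of different genes are not set against each other because probes differ in brightness. A probe set is called dim where its mean over the 6 arrays was below 2.53, the 99th percentile of 1405 odorant and vomeronasal receptor probe sets, used as a background for heart tissue. Array medians over the 25341 probe sets with at least 1 symbol were between 2.44 and 2.51. All 10 SAN markers measured, Hcn4 among them, were above the dim level, with a mean signal between 5.17 and 5.54 on HCN4FEA arrays and between 5.04 and 5.58 on WT arrays. HCN4FEA 3 and WT 1 stood apart in neuron markers, with means over 11 genes of 4.84 and 4.28 against 2.11 and 2.53 on the other HCN4FEA arrays and 2.31 and 2.34 on the other WT arrays, so counts are also given without this pair. WT 1 alone also stood apart in mesothelium markers, with a mean over 6 genes, none of them dim, of 5.15, against 5.97 to 6.09 on HCN4FEA arrays and 6.15 and 6.26 on the other WT arrays. The mice are labelled male, yet Xist, the transcript that coats the inactive X chromosome of female cells, had signals between 8.97 and 9.08 on HCN4FEA arrays and between 9.02 and 9.43 on WT arrays, whereas Uty, Eif2s3y and Kdm5d of the Y chromosome were dim. The sources do not state if mice were pooled for an array, so the spread behind every p-value is that of arrays.

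Of the 49 members, 28 were above the dim level and 21 were dim. Adamtsl2, Timp1, Timp3 and Mmp23 were higher in HCN4FEA tissue at an unadjusted p under 0.05 by limma, a linear model with moderated variances, and Mmp9 and Adamtsl3 were lower. These 6 members are 12.2% of the members, beside 6.1% of all probe sets tested. By direction they are 8.16% higher, beside 3.4% of all probe sets, and 4.08% lower, beside 2.71%. Members were chosen with earlier results of Adamtsl2 and Timp1 in these data known, so the total and higher shares partly restate that choice. With the fold change of at least 1.5 that the study used, Adamtsl2 and Timp1 remained on the higher side (0.604% of all probe sets) and Mmp9 on the lower side (0.529%). No member passed after Benjamini-Hochberg adjustment, where the smallest adjusted p was 0.724, and no other probe set did. In the same fit 1547 probe sets passed an unadjusted p under 0.05, and the methods' t-test gave 0 adjusted and 1021 unadjusted calls. The median log2 fold change was 0.02 over the members and 0.01 over all probe sets, and 26 members had a positive and 23 a negative one.

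**Figure D1:**
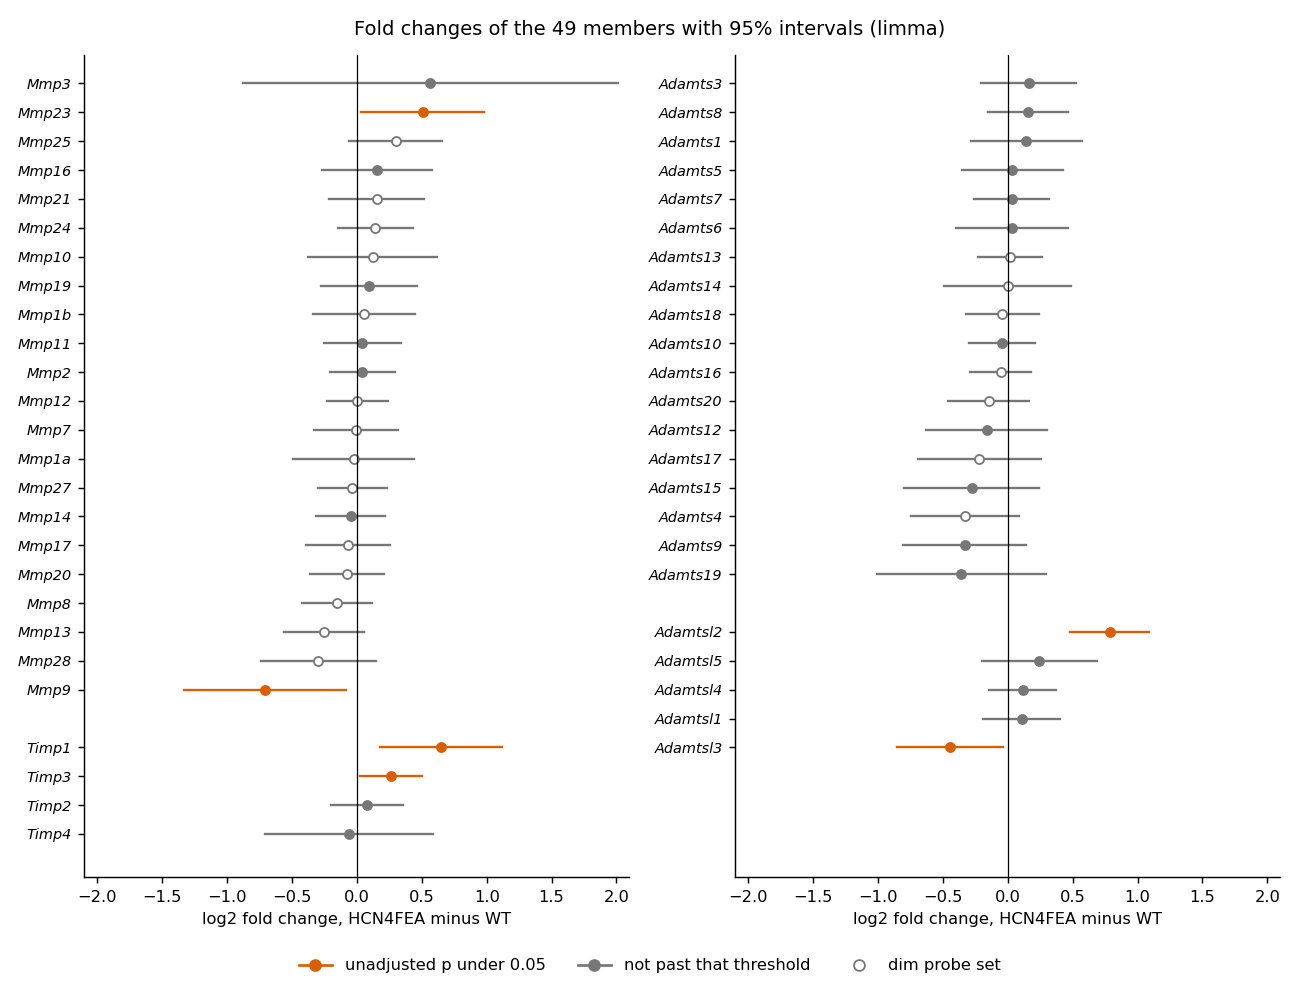
Log2 fold change (HCN4FEA minus WT, x axis) of each of the 49 members with its 95% confidence interval from limma, 3 arrays per genotype; orange marks an unadjusted p under 0.05 and open circles mark dim probe sets. The 6 orange intervals leave out 0, with Adamtsl2 at 0.79 and Mmp9 at -0.71 as the ends of the range, and the widest interval is that of Mmp3.

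Of the 28 members above the dim level, 16 had a 95% confidence interval within a 1.5-fold change in either direction and 23 within a 2-fold change. The intervals of the 21 dim members set no limit on a change of the transcript, since their signals were near the background. No member among the 21 dim ones passed the unadjusted threshold. All HCN4FEA arrays were above all WT arrays for 3 of the 49 members (Adamtsl2, Timp1 and Timp3), as for 6.31% of all probe sets. All were below for 1 member, the dim Adamts4, as for 4.92% of all probe sets. By the methods' t-test, 2 members (Adamtsl2 and Timp3) passed an unadjusted p under 0.05, beside 4.03% of all probe sets. With 3 arrays against 3 the smallest p an exact permutation test can give is 0.1 (two-sided). Every gene without overlap has this value, so for Adamtsl2, Timp1, Timp3 and Adamts4 it restates the missing overlap and adds no further test.

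Among the 4 TIMPs, 2 were higher at an unadjusted p under 0.05 and none was lower, beside 3.4% and 2.71% of all probe sets. Timp1, a secreted inhibitor that is induced in many tissues under repair, had signals of 6.06, 5.78 and 5.56 on HCN4FEA arrays 1 to 3 and of 4.74, 5.34 and 5.37 on WT arrays 1 to 3 (probe set 17533713). The lowest HCN4FEA array was above the highest WT array, and WT 1 was lower than the other WT arrays. The means were 5.80 ± 0.25 in HCN4FEA and 5.15 ± 0.35 in WT tissue (SD, n = 3 each), which is a log2 fold change of 0.65 (SE 0.20, 95% confidence interval 0.18 to 1.12, unadjusted p = 0.0130 and adjusted p = 0.778 from limma), or 1.57-fold. Leaving out each array in turn kept it past the unadjusted threshold, with fold changes between 0.44 (without WT 1) and 0.77 (without HCN4FEA 3). The methods' t-test gave an unadjusted p of 0.0672. WT 1, the lowest array for Timp1, was also the array with the low mesothelium markers, whose part in the difference was not tested. Timp1 lies on the X chromosome inside Syn1, a synapsin gene on the opposite strand that neurons use. Syn1 was dim, with signals of 2.14, 1.86 and 3.06 on HCN4FEA arrays and 2.66, 1.91 and 1.87 on WT arrays. They were highest in each genotype on the array with the high neuron markers, where Timp1 was lowest. The part of neuronal tissue or of Syn1 in the Timp1 values was not tested.

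Timp3, the TIMP that binds firmly to the matrix and inhibits ADAMTS proteases as well as MMPs, differed by less but with a narrow spread. Its signals were 9.51, 9.56 and 9.56 in HCN4FEA tissue and 9.35, 9.31 and 9.19 in WT tissue (probe set 17236182). The groups did not overlap, and the HCN4FEA arrays spanned 0.05. The means of 9.55 ± 0.03 in HCN4FEA and 9.28 ± 0.08 in WT tissue (SD, n = 3 each) gave a log2 fold change of 0.26 (SE 0.10, interval 0.03 to 0.50, unadjusted p = 0.0342 and adjusted p = 0.805 from limma), or 1.20-fold. Only without WT 1 did it stay past the unadjusted threshold by limma (0.30). Without HCN4FEA 1, 2 or 3 the fold changes were 0.28, 0.25 and 0.26, and without WT 2 or WT 3 they were 0.27 and 0.22, with unadjusted p between 0.0591 and 0.0917 from limma. The methods' t-test gave an unadjusted p of 0.0196. Timp3 lies inside another synapsin gene, Syn3, which was dim. Its signals were 2.31, 2.62 and 2.40 on HCN4FEA arrays and 2.30, 2.63 and 2.08 on WT arrays, with overlapping groups.

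The remaining TIMPs did not pass the test. Timp2, which together with Mmp14 activates the Mmp2 proenzyme, had signals of 7.85, 7.72 and 7.88 in HCN4FEA and 7.71, 7.61 and 7.90 in WT tissue. The groups overlapped, and the log2 fold change was 0.08 (interval -0.20 to 0.36). Timp4, the TIMP known for its expression in the heart, had 3.66, 4.05 and 4.35 on HCN4FEA arrays and 4.56, 4.18 and 3.50 on WT arrays. Its WT arrays spanned 1.06 on the log2 scale, the fold change was -0.06 (interval -0.71 to 0.59), and it was 0.18 without WT 1 and -0.35 without WT 3. Timp4 lies on the strand opposite to its host Syn2, which had 3.99, 3.52 and 6.15 on HCN4FEA arrays and 5.38, 3.65 and 3.71 on WT arrays. HCN4FEA 3 and WT 1 had the highest signal of their genotype for both genes, and the part of neuronal tissue in the Timp4 values was not tested.

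**Figure D2:**
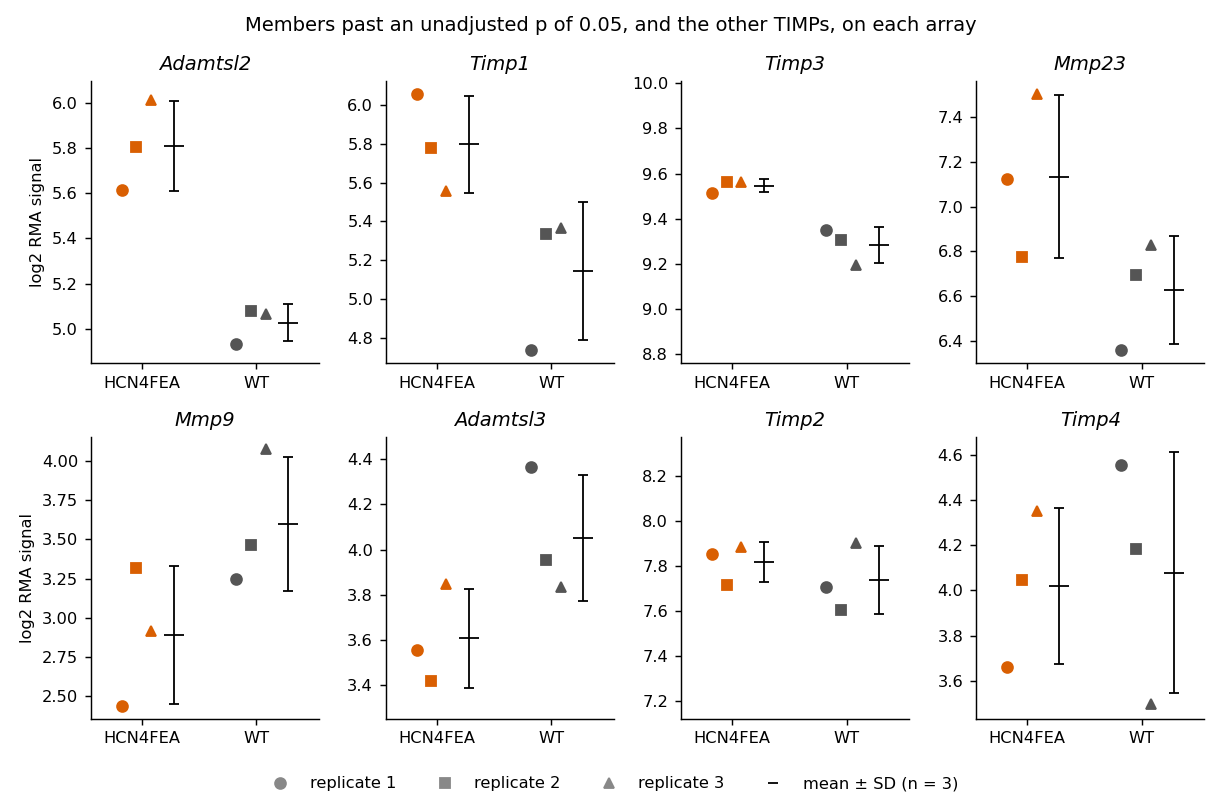
Log2 RMA signal (y axis, a separate range per panel) of the 6 members past an unadjusted p of 0.05 and of the other TIMPs on each array, HCN4FEA left and WT right, with mean ± SD (n = 3). Adamtsl2, Timp1 and Timp3 show no overlap between genotypes, while Mmp23, Mmp9 and Adamtsl3 overlap by 1 or more arrays.

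Timp1, Timp3 and Adamtsl2 are the members above the dim level whose genotypes did not overlap. All were higher in HCN4FEA tissue, a pattern that 6.31% of all probe sets showed. The 110 bases before the RefSeq starts of these genes are shown for comparison with the MMP genes described further on (build GRCm38.p6, each on the plus strand). The windows are X:20870056-20870165 for Timp1, 10:86300302-86300411 for Timp3 and 2:27079269-27079378 for Adamtsl2. Capitals mark a GC box (GGGCGG or its reverse complement CCGCCC) and a TATA box (TATAAA).
Timp1: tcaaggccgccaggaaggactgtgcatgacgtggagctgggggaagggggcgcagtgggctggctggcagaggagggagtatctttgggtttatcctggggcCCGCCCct
Timp3: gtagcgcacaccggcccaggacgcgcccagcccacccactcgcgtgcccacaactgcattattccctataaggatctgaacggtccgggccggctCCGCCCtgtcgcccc
Adamtsl2: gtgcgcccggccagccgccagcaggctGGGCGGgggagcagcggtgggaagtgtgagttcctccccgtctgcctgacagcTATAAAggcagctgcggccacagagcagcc
All of these windows held a GC box, which Sp1-type factors can bind, and Adamtsl2 also held a TATA box. In 250 bases before the start, a GC box on either strand was found in 18 of the 34 members with a promoter in the reference table (52.9%), beside 35.4% of all 27025 genes with a promoter there. No share was computed for windows of 110 bases, and the genes shown were picked by their values. These letters are a description of the sequence and not a site shown to be in use.

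The ADAMTS-like genes were all above the dim level. At the unadjusted threshold 1 of 5 was higher and 1 lower, beside 3.4% higher and 2.71% lower over all probe sets. Adamtsl2 encodes a secreted protein that binds fibrillin microfibrils and the TGF-beta carrier LTBP1, and its loss in humans causes geleophysic dysplasia, a disorder of short stature, stiff skin and thickened heart valves. Its signals were 5.61, 5.81 and 6.01 on HCN4FEA arrays and 4.93, 5.08 and 5.06 on WT arrays (probe set 17368476). The nearest arrays of the genotypes were further apart than any pair of arrays within a genotype. The means were 5.81 ± 0.20 in HCN4FEA and 5.03 ± 0.08 in WT tissue (SD, n = 3 each), and the log2 fold change of 0.79 (SE 0.13, interval 0.48 to 1.09, unadjusted p = 0.000356 and adjusted p = 0.724 from limma) corresponds to 1.72-fold. It was between 0.68 (without HCN4FEA 3) and 0.88 (without HCN4FEA 1) when single arrays were left out and 0.64 without both HCN4FEA 3 and WT 1, past the unadjusted threshold each time. The methods' t-test gave an unadjusted p of 0.0115.

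Adamtsl3, a relative whose protein is likewise deposited in the matrix, ran the other way. It had signals of 3.56, 3.42 and 3.85 on HCN4FEA arrays and of 4.37, 3.95 and 3.84 on WT arrays (probe set 17479769). HCN4FEA 3 and WT 3 were at nearly the same level, so the groups overlapped, and WT 1 was highest. The means of 3.61 ± 0.22 in HCN4FEA and 4.05 ± 0.28 in WT tissue (SD, n = 3 each) gave a log2 fold change of -0.45 (SE 0.18, interval -0.85 to -0.04, unadjusted p = 0.0352 and adjusted p = 0.805 from limma). It stayed past the unadjusted threshold without HCN4FEA 3 (-0.57), WT 2 (-0.49) or WT 3 (-0.55). It did not without HCN4FEA 1 (-0.42), HCN4FEA 2 (-0.35) or WT 1 (-0.29), nor by the methods' t-test (unadjusted p = 0.0990).

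The other ADAMTS-like genes did not pass the test. Adamtsl5, a microfibril-binding protein, had signals of 5.75, 5.69 and 6.19 in HCN4FEA and 5.34, 5.64 and 5.93 in WT tissue, for a log2 fold change of 0.24 (interval -0.20 to 0.69). Adamtsl4, whose loss in humans displaces the lens, had 5.52, 5.73 and 5.61 in HCN4FEA and 5.61, 5.45 and 5.45 in WT tissue, with a fold change of 0.11 (interval -0.15 to 0.37). Adamtsl1 had 2.91, 3.23 and 3.29 in HCN4FEA and 3.03, 3.06 and 3.02 in WT tissue, with a fold change of 0.11 (interval -0.19 to 0.40). In each of these genes at least 1 HCN4FEA array was below a WT array.

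Of the 22 MMP genes, 14 were dim and 20 did not pass the unadjusted threshold. In this family 1 gene was higher and 1 lower, beside 3.4% higher and 2.71% lower over all probe sets. Mmp23 encodes an MMP that is anchored in the membrane by its N terminus, is released by furin-type proteases and carries a toxin-like domain related to blockers of potassium channels. Its signals were 7.12, 6.77 and 7.50 on HCN4FEA arrays and 6.36, 6.69 and 6.83 on WT arrays (probe set 17433815). HCN4FEA 2 was below WT 3, HCN4FEA 3 was highest and WT 1 lowest. The means were 7.13 ± 0.37 in HCN4FEA and 6.63 ± 0.24 in WT tissue (SD, n = 3 each), which is a log2 fold change of 0.51 (SE 0.20, interval 0.03 to 0.98, unadjusted p = 0.0388 and adjusted p = 0.805 from limma). It stayed past the threshold without HCN4FEA 2 (0.69) or WT 3 (0.61). The call was lost without HCN4FEA 1 (0.51), HCN4FEA 3 (0.32), WT 1 (0.37) or WT 2 (0.54), and the fold change was 0.19 without both HCN4FEA 3 and WT 1. The methods' t-test gave an unadjusted p of 0.126. WT 1 was again the array with the low mesothelium markers, and their part in the Mmp23 difference was not tested.

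Mmp9, the gelatinase B that neutrophils and macrophages release, was the lower one. Its signals were 2.44, 3.32 and 2.92 on HCN4FEA arrays and 3.25, 3.47 and 4.07 on WT arrays (probe set 17379606). HCN4FEA 1 was below the dim level and lowest, WT 3 was highest, and HCN4FEA 2 lay above WT 1. The means of 2.89 ± 0.44 in HCN4FEA and 3.60 ± 0.43 in WT tissue (SD, n = 3 each) gave a log2 fold change of -0.71 (SE 0.27, interval -1.33 to -0.08, unadjusted p = 0.0315 and adjusted p = 0.804 from limma), or 1.63-fold lower. It passed without HCN4FEA 2 (-0.92), WT 1 (-0.88) or WT 2 (-0.77). It did not pass without HCN4FEA 1 (-0.48), HCN4FEA 3 (-0.72) or WT 3 (-0.47), nor by the methods' t-test (unadjusted p = 0.117). Macrophage markers ran between 5.77 and 6.08 on HCN4FEA arrays and between 5.66 and 5.90 on WT arrays. These are means over 10 genes, none of them dim. Of these genes, 3 (Csf1r, Cd163 and Lyve1) were higher and none lower at the unadjusted threshold, beside 3.4% and 2.71% of all probe sets. The part of macrophage markers in the Mmp9 values was not tested.

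The gelatinase A gene Mmp2 and its membrane-type activator Mmp14 did not pass the test. Mmp2 had signals of 7.76, 7.88 and 7.67 in HCN4FEA and 7.75, 7.76 and 7.68 in WT tissue, for a log2 fold change of 0.04 (interval -0.21 to 0.29). Mmp14 had 6.10, 5.83 and 5.85 in HCN4FEA and 6.02, 5.91 and 5.99 in WT tissue, with a fold change of -0.05 (interval -0.32 to 0.22). Both intervals leave out a change of 1.5-fold in either direction. The stromelysin-3 gene Mmp11, whose product is activated by furin before secretion, had 5.22, 4.92 and 4.87 in HCN4FEA and 5.05, 4.93 and 4.91 in WT tissue, with a fold change of 0.04 (interval -0.25 to 0.34). Its second probe set gave -0.01.

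Mmp3, stromelysin-1, was the most variable member. Its signals were 4.74, 4.45 and 5.41 on HCN4FEA arrays and 3.96, 3.10 and 5.86 on WT arrays (probe set 17514515). WT 3 was the highest of the 6 and WT 2 the lowest, and the arrays spanned 0.96 within HCN4FEA and 2.76 within WT tissue. The log2 fold change of 0.56 had an interval of -0.88 to 2.01 (unadjusted p = 0.393 from limma), and the estimate was -0.04 without WT 2 and 1.34 without WT 3. Only the absence of WT 3 brought an unadjusted p under 0.05 (0.00684 from limma). A WT range of at least 1 was also found for Adamts19 and Timp4, and no member had such a range within HCN4FEA tissue.

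Mmp3 belongs to a run of 10 MMP genes that are neighbours on chromosome 9 (Mmp13, Mmp12, Mmp1b, Mmp3, Mmp1a, Mmp10, Mmp8, Mmp27, Mmp20 and Mmp7), among them the mouse interstitial collagenases. In this run 9 genes were dim and only Mmp3 was not, and none passed the unadjusted threshold. Their log2 fold changes were between -0.26 and 0.56 with a median of -0.02, beside 0.01 over all probe sets, values that for the dim genes describe signals near the background. Sequences before the RefSeq starts of Mmp3, Mmp10 and Mmp13 are shown because these genes share letters there and yet only Mmp3 was above the dim level. The windows of 110 bases (GRCm38.p6, plus strand) are 9:7445712-7445821 for Mmp3, 9:7502232-7502341 for Mmp10 and 9:7272404-7272513 for Mmp13, and capitals mark an AP-1 element (TGACTCA or its reverse complement TGAGTCA) and a TATA box (TATAAA).
Mmp3: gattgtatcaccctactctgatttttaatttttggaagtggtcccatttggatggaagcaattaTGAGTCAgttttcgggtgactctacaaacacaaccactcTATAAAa
Mmp10: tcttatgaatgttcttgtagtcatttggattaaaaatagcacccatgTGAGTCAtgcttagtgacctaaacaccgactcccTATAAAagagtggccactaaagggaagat
Mmp13: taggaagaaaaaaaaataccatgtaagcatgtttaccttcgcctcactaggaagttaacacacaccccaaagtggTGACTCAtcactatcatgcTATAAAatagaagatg
The AP-1 element, the site of Fos and Jun dimers, began at -46 in Mmp3, -63 in Mmp10 and -35 in Mmp13 relative to the RefSeq start. In 250 bases before the start it was found on either strand in 7 of the 34 members with a promoter (20.6%), beside 5.16% of all genes with a promoter, and all 7 are in the chromosome 9 run (Mmp10, Mmp12, Mmp13, Mmp1a, Mmp1b, Mmp3 and Mmp7). The letters TATAAA, at any position of the 250 bases on the gene's own strand, were found in 10 of the 34 (29.4%). The share was 8.94% of all genes with a promoter. In the windows shown they began at -7 in Mmp3, -29 in Mmp10 and -16 in Mmp13 relative to the RefSeq start. Whether they serve as a TATA box for these starts was not tested. These motifs were chosen after the values and other motifs of these promoters had been looked at, and the neighbours share ancestry, so the shares are a description.

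**Figure D3:**
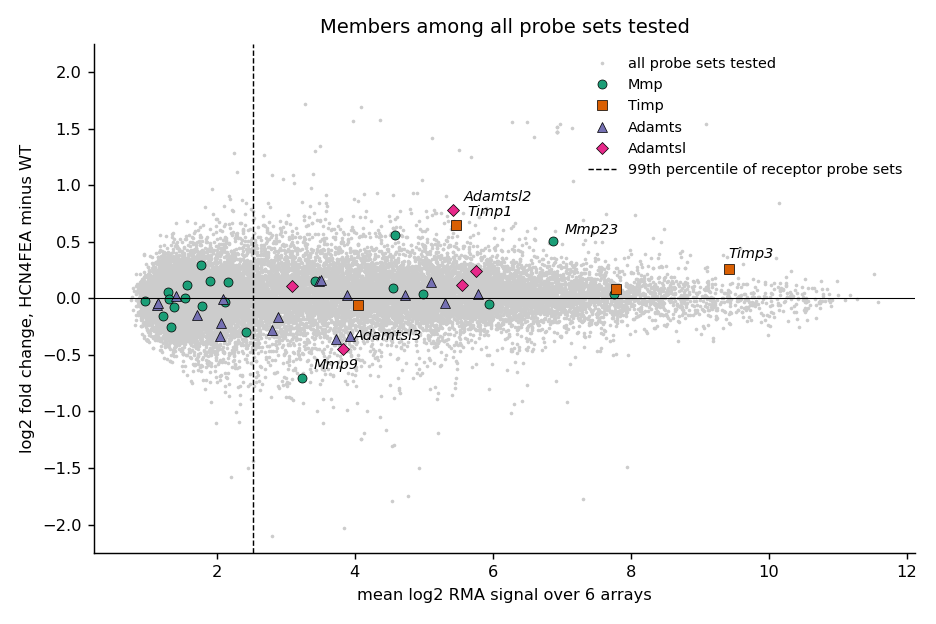
Log2 fold change (HCN4FEA minus WT, y axis) against mean log2 RMA signal over 6 arrays (x axis) for all 25341 probe sets tested (grey) and the 49 members (coloured by family); the dashed line marks 2.53, below which a probe set is called dim. The dim members, most of them MMPs, lie within the grey cloud near 0, and Adamtsl2, Timp1 and Mmp9 are the members furthest from 0 that passed the unadjusted threshold.

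None of the 18 ADAMTS proteases passed the unadjusted threshold, beside 6.1% of all probe sets, and 7 of them were dim. Their log2 fold changes were between -0.36 (Adamts19) and 0.16 (Adamts3), with a median of -0.04, 7 positive and 11 negative. Adamts1, a protease for aggrecan and versican that is induced by inflammation, had signals of 5.29, 5.02 and 5.23 in HCN4FEA and 5.43, 4.96 and 4.73 in WT tissue, a fold change of 0.14 (interval -0.29 to 0.57). Its neighbour on chromosome 16, the aggrecanase gene Adamts5, had 5.67, 5.66 and 6.08 in HCN4FEA and 5.86, 5.95 and 5.50 in WT tissue, with a fold change of 0.03 (interval -0.36 to 0.43). The WT arrays enclosed all HCN4FEA arrays of Adamts1 and all but HCN4FEA 3 of Adamts5. Adamts9, a versican-cleaving protease, had 3.91, 3.86 and 3.53 in HCN4FEA and 3.77, 4.01 and 4.53 in WT tissue, with a fold change of -0.33 (interval -0.81 to 0.14). Without WT 1 that difference was -0.50 and passed the unadjusted threshold, and without WT 3, the highest array, it was -0.12.

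The microfibril-associated protease genes Adamts10 and Adamts6 are close relatives. Adamts10 had 5.29, 5.27 and 5.32 in HCN4FEA and 5.48, 5.26 and 5.27 in WT tissue, for a log2 fold change of -0.04 (interval -0.30 to 0.21). Adamts6 had 4.69, 4.98 and 4.57 in HCN4FEA and 5.08, 4.46 and 4.62 in WT tissue, with a fold change of 0.03 (interval -0.40 to 0.46). WT 1 was the highest of the 6 arrays in both genes. Adamts4, the other classical aggrecanase, was named after its values were seen, since it was the single member with all HCN4FEA arrays below all WT arrays. It had 1.66, 2.02 and 1.97 in HCN4FEA and 2.03, 2.03 and 2.58 in WT tissue, dim in all but WT 3, and its fold change was -0.33 (interval -0.75 to 0.09). The procollagen N-proteinase genes Adamts3 and Adamts14 (dim) had fold changes of 0.16 and 0.00, and Adamts13 (dim), which trims von Willebrand factor, had 0.02.

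**Figure D4:**
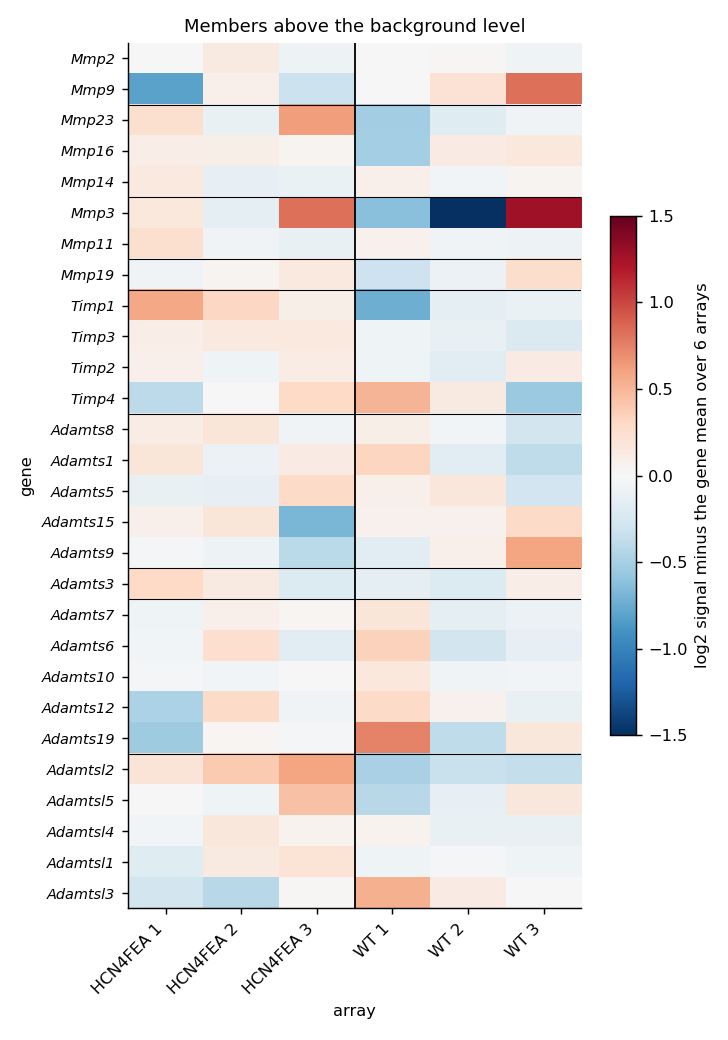
Log2 signal minus the gene's mean over the 6 arrays (colour scale, log2 units) for the 28 members above the dim level, one row per gene and one column per array, HCN4FEA left of the black line and WT right. Adamtsl2, Timp1 and Timp3 have one colour on each side of the line, whereas Mmp3, Adamts19 and Timp4 each span at least 1 within WT.

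Genes that activate, inhibit or are cut by these enzymes were read from lists of partners, of which 48 of 51 genes were measured. Among 13 activators and other inhibitors, 3 were higher and none lower at the unadjusted threshold, beside 3.4% higher and 2.71% lower over all probe sets. Their median log2 fold change was 0.13, beside 0.01 over all probe sets, and A2m was listed with its earlier result in these data known. A2m encodes alpha-2-macroglobulin, which traps active proteases of all classes, and had signals of 5.44, 5.55 and 5.66 in HCN4FEA and 4.50, 5.11 and 4.78 in WT tissue. The groups did not overlap, and the fold change was 0.76 (SE 0.16, interval 0.38 to 1.14, unadjusted p = 0.00185 and adjusted p = 0.724 from limma), past the unadjusted threshold without each array in turn (0.61 to 0.91). Furin, the protease that removes the prodomain of Mmp11, Mmp14, Mmp23 and many ADAMTS enzymes, had 6.66, 6.66 and 6.52 in HCN4FEA and 6.12, 6.20 and 6.37 in WT tissue, again without overlap. Its fold change of 0.38 (interval 0.12 to 0.65, unadjusted p = 0.0105 from limma) held without each array (0.33 to 0.45). Plat, tissue plasminogen activator, had 6.55, 6.70 and 7.00 in HCN4FEA and 5.96, 6.38 and 6.55 in WT tissue, with HCN4FEA 1 just below WT 3 and a fold change of 0.45 (interval 0.02 to 0.88, unadjusted p = 0.0405 from limma). Plat passed only without HCN4FEA 1 (0.55) or WT 3 (0.58), and not without HCN4FEA 2 (0.47), HCN4FEA 3 (0.33), WT 1 (0.28) or WT 2 (0.49). By the methods' t-test A2m (unadjusted p = 0.0370) and Furin (0.0166) passed and Plat (0.114) did not. Plasminogen itself (Plg) and the proprotein convertase Pcsk5 were dim, and the fold change of 0.23 of Pcsk5 passed only without WT 1 (0.35).

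Of 16 other metalloproteases and their enhancers, none was higher and 1 was lower, beside 3.4% higher and 2.71% lower over all probe sets. The median log2 fold change of this list was 0.06. Adam19, a membrane-bound sheddase of the related ADAM family that is needed for heart valve formation in mice, had signals of 7.10, 7.32 and 7.06 in HCN4FEA and 7.37, 7.45 and 7.68 in WT tissue. All HCN4FEA arrays were below all WT arrays, and the fold change was -0.34 (interval -0.64 to -0.04, unadjusted p = 0.0309 from limma). It passed without HCN4FEA 2 (-0.42) or WT 1 (-0.40), and not without HCN4FEA 1 (-0.31), HCN4FEA 3 (-0.29), WT 2 (-0.36) or WT 3 (-0.25), and the methods' t-test gave an unadjusted p of 0.0490. Pcolce2, an enhancer of procollagen C-proteinases, had no overlap in the other direction, with 7.93, 7.78 and 7.89 in HCN4FEA and 7.61, 7.61 and 7.69 in WT tissue, and a fold change of 0.23 (unadjusted p = 0.0585 from limma and 0.0215 by the methods' t-test). The procollagen C-proteinase gene Bmp1 had a fold change of 0.28, which passed the unadjusted threshold without WT 3 (0.45). Adam33 had 0.24, which passed without WT 2 (0.46).

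Among 19 substrates and binding partners, 3 were higher and none lower, beside 3.4% higher and 2.71% lower over all probe sets, with a median log2 fold change of 0.22. Of these 3, Thbs1 and Comp were listed with their earlier results in these data known, so the count partly restates that choice. Thbs1 encodes thrombospondin-1, a matrix protein that Adamts1 can cleave and that activates TGF-beta, and had signals of 3.32, 4.03 and 4.49 in HCN4FEA and 2.54, 2.73 and 3.27 in WT tissue. The lowest HCN4FEA array was just above the highest WT array, and the fold change was 1.10 (SE 0.31, interval 0.39 to 1.81, unadjusted p = 0.00724 from limma), between 0.83 and 1.41 without single arrays. Without both HCN4FEA 3 and WT 1 it was 0.67 and no longer passed (unadjusted p = 0.0586 from limma). Comp, a cartilage and tendon matrix protein cleaved by Adamts7 and Adamts12, had 5.05, 5.10 and 5.69 in HCN4FEA and 4.48, 4.51 and 5.06 in WT tissue, a fold change of 0.60 (unadjusted p = 0.0278 from limma) with HCN4FEA 1 just below WT 3. Comp passed without HCN4FEA 1 (0.71), HCN4FEA 2 (0.69) or WT 3 (0.79), and not without HCN4FEA 3 (0.39), WT 1 (0.50) or WT 2 (0.51). Vwf, von Willebrand factor of endothelial cells, had 7.33, 7.57 and 7.62 in HCN4FEA and 7.04, 7.41 and 7.01 in WT tissue, a fold change of 0.35 (unadjusted p = 0.0469 from limma) that passed only without HCN4FEA 1 (0.44) or WT 2 (0.48). It did not pass without HCN4FEA 2 (0.32), HCN4FEA 3 (0.29), WT 1 (0.29) or WT 3 (0.28). The fibrillar collagen genes Col1a1, Col1a2 and Col3a1, substrates of the collagenases, had fold changes of 0.02, 0.05 and -0.02 and did not pass, nor did the dim proteoglycan gene Acan (0.24). By the methods' t-test none of Thbs1 (unadjusted p = 0.0635), Comp (0.0997) and Vwf (0.0993) passed.

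**Figure D5:**
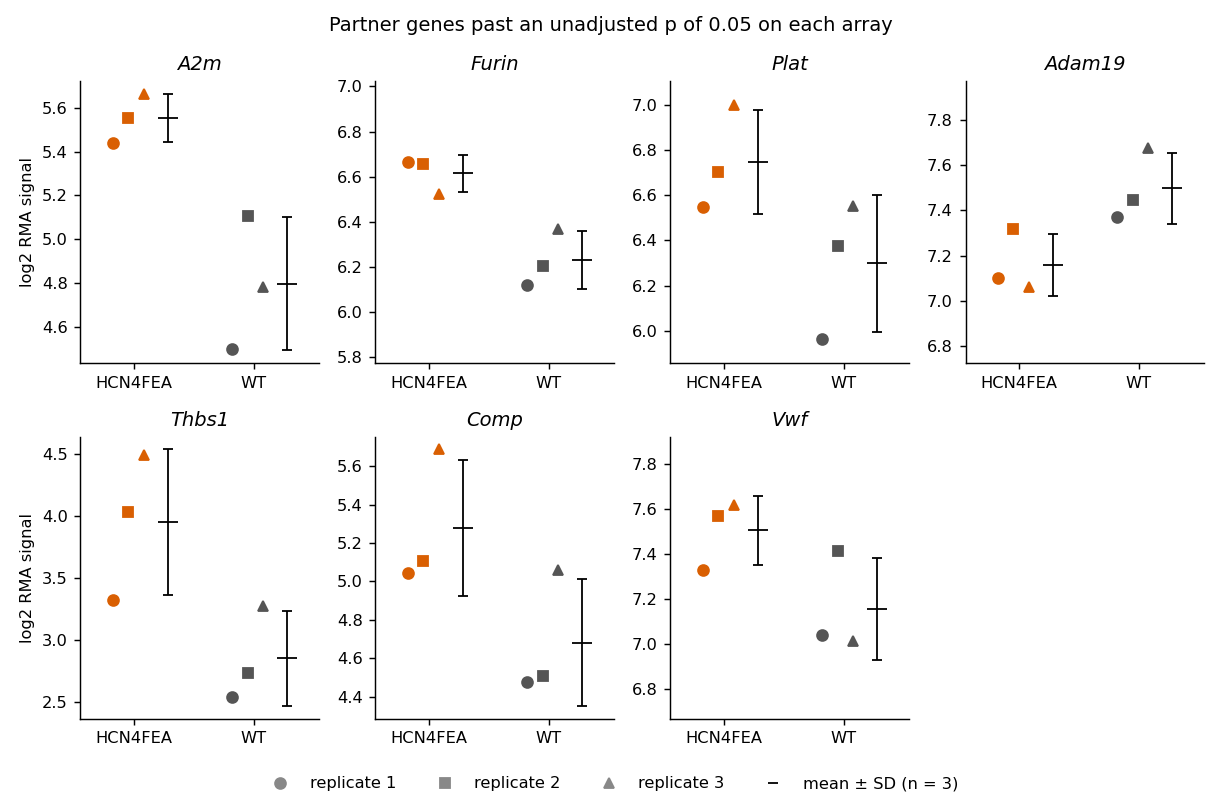
Log2 RMA signal (y axis, a separate range per panel) of the 7 partner genes past an unadjusted p of 0.05 on each array, HCN4FEA left and WT right, with mean ± SD (n = 3). A2m, Furin and Thbs1 lie above the WT arrays on every HCN4FEA array and Adam19 lies below, while Plat, Comp and Vwf overlap.

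Mean signals of some cell type marker lists did not overlap between the genotypes. Of 12 cell type lists, 4 had a higher mean signal on every HCN4FEA array than on any WT array. For 1 list, the adipocytes, every HCN4FEA array was lower. Among single probe sets, 6.31% lay above and 4.92% below in this way, and no such share was computed for means of gene lists. The counts of higher or lower genes below stand beside 3.4% higher and 2.71% lower over all probe sets. Fibroblast markers, 9 of 9 measured and none dim, were between 8.36 and 8.46 on HCN4FEA arrays and between 8.28 and 8.35 on WT arrays, and none of them passed the unadjusted threshold. Markers of cartilage, tendon and valve, a list that contains Comp, were between 3.53 and 3.95 on HCN4FEA arrays and between 3.10 and 3.39 on WT arrays. Of its 10 genes, 3 (Comp, Epyc and Cilp) were higher, and Acan, Chad, Col2a1 and Tnmd were dim. Skeletal muscle markers were between 4.11 and 4.46 on HCN4FEA arrays and between 3.60 and 4.05 on WT arrays, with 3 of 8 genes higher and Actn3, Myh1 and Myh4 dim. Schwann cell markers, 4 of 7 measured, were between 3.12 and 3.17 on HCN4FEA arrays and between 2.90 and 3.05 on WT arrays, with Pmp2 and Sox10 dim. Adipocyte markers were between 2.92 and 3.71 on HCN4FEA arrays and between 4.08 and 4.25 on WT arrays, with 4 of 8 genes lower and Lep dim. The part of any of these lists in the values of Adamtsl2, Timp1, Timp3 or the partner genes was not tested, and in bulk tissue fewer cells of a type and less RNA per cell cannot be told apart.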

How the data were processed

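Total RNA of dissected SAN tissue was labelled with the Affymetrix whole transcript sense kit. Per the labels, the authors used Affymetrix Expression Console 1.0 with RMA, which removes background, equalises the distributions of the arrays and summarises probes, and the log2 values deposited by the authors were taken without rescaling. Partek 6.5 is also named in the submitters' notes. The probe set identifiers belong to a later array version than the methods name, and genes were named from the platform annotation of these identifiers. Of 41345 probe sets, 23521 had 1 symbol, 1820 had several and 16004 were unnamed here. A gene of these families without a probe set of its own symbol was not analysed here, and 1 probe set that shares a member's symbol with another gene was left out.

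HCN4FEA minus WT was fitted with limma 3.58.1 in R 4.3.3 over the 25341 probe sets with at least 1 symbol (3.85 prior degrees of freedom, no replicate block), with Benjamini-Hochberg adjustment over all of them. The script was tested on simulated data. Signals on every array are given for members past an unadjusted p of 0.05 or a fold of 1.5, for all TIMPs, for members above the dim level without overlap, and for the 5 Mmp, Adamts and Adamtsl genes with the highest means. Partner genes are named where they passed an unadjusted p of 0.05, with up to 4 per list by lowest p. Plg, the collagen genes, Adamts3, Adamts13, Adamts14 and Adamts19 were named beyond this rule or for their roles. Promoter sequences and gene order are from RefSeq (GRCm38.p6). All 49 members matched a RefSeq gene, on 18 chromosomes, and 34 had a promoter in the table. Members and lists were chosen with earlier results of these data known. The number of arrays limits the precision. Python 3.11.15 with matplotlib 3.10.9 was used for plots.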

Additional observations from a re-analysis of the deposited data

How the results depend on the processing

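By limma, 4 members were higher and 2 were lower past the unadjusted threshold. The count of higher members was 2 by the methods' t-test (Adamtsl2 and Timp3), 3 with the replicate number as a block (without Timp3, unadjusted p = 0.0690 from limma), 3 with all probe sets of the table fitted (without Mmp23, unadjusted p = 0.0558 from limma) and 2 to 4 without single arrays, with 2 of them without HCN4FEA 3 or WT 2. The count of lower members was 0 by the methods' t-test, 2 with the block and 0 (without HCN4FEA 1) to 4 (without WT 2, which adds Adamts19 and the dim Mmp13) without single arrays. Without both HCN4FEA 3 and WT 1, a setting chosen after seeing the data, 2 members were higher (Adamtsl2 and Timp1) and 2 lower (Mmp9 and Adamtsl3). Centring each array on its median, a trend with a robust prior, and the mean over all probe sets of a gene left 4 higher and 2 lower. The members behind these counts also changed without single arrays. On the higher side, the dim Mmp25 entered without HCN4FEA 1, and Mmp3 entered without WT 3. On the lower side, Adamts9 took the place of Adamtsl3 without WT 1, and the dim Mmp28 that of Mmp9 without WT 3. Adamtsl2 passed in every alternative run, and Timp1 in each one except the methods' t-test. No alternative gave a probe set past an adjusted p of 0.05. Probe sets past an unadjusted p of 0.05 numbered 1547, against 1021 by the methods' t-test, 2445 with all probe sets of the table fitted, 637 with only probe sets of a mean of at least 4 and 1303 to 2034 without single arrays. The replicate numbers did not pair the arrays (correlations of same-numbered arrays' deviations of -0.05, 0.09 and -0.03 across probe sets), and the block changed no other member's call; of the partner genes it ended that of Adam19 (unadjusted p = 0.0515 from limma). Fold changes changed sign without single arrays in Adamts1 (-0.012 to 0.34), Adamts10 (-0.081 to 0.026), Adamts5 (-0.10 to 0.13), Adamts6 (-0.098 to 0.21), Mmp11 (-0.067 to 0.11), Mmp2 (-0.015 to 0.092), Mmp3 (-0.039 to 1.34) and Timp4 (-0.35 to 0.18). With all arrays these fold changes were close to 0, except that of Mmp3 (0.56). Without both HCN4FEA 3 and WT 1 the sign turned in Adamts10 (0.014), Adamts5 (-0.055), Adamtsl5 (-0.062), Mmp14 (0.013) and Timp4 (0.013). The cause of these changes was not tested.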
